A study of Homo sapiens with 6 samples.

Results

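SPRR1A, SPRR1B and CNFN are the 3 genes described here, taken by symbol from the 753 genes of the deposited table of AsPC-1 cells with and without a hairpin against TMPRSS4. AsPC-1 is an established line of human pancreatic cancer cells, and TMPRSS4 is a serine protease anchored in the cell membrane. The control group was 3 AsPC-1 samples carrying a control lentivirus (TMPRSS4 NC), and the knockdown group was 3 AsPC-1 samples carrying shTMPRSS4 lentivirus (TMPRSS4-Knockdown). All 6 libraries came from this 1 cell line, and the hairpin's sequence was not used here. The sample descriptions of the knockdown libraries read "si" where the titles read "sh". The TMPRSS4 transcript was not analysed here, and the knockdown label rests on the sample labels alone.

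The 3 genes belong to the cornified envelope, the protein shell that replaces the plasma membrane of dying keratinocytes in skin and other stratified squamous epithelia. Transglutaminases crosslink precursor proteins into this shell, and small proline-rich proteins such as those of SPRR1A and SPRR1B act as bridges between larger precursors. CNFN encodes cornifelin, another component of the envelope. The SPRR genes lie with the late cornified envelope (LCE) genes and many other precursors in the epidermal differentiation complex, while CNFN lies on another chromosome. SPRR1B is also among the genes used to mark basal-like, squamous-leaning pancreatic tumours. In epithelial cells, SPRR1 genes are known to respond to stress, phorbol ester and AP-1, a dimer of JUN and FOS family proteins.

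The rows of the table were selected by the authors on the same contrast of knockdown with control. In the authors' deposited table, the lowest absolute log2 fold change was 1 and the highest false discovery rate (FDR) was 0.0490. The levels and fold changes below therefore carry no test. In the authors' deposited table SPRR1A had a log2 fold change of 3.14 and an FDR of 2.56e-27, SPRR1B 1.38 and 4.41e-24, and CNFN 1.11 and 0.000158. CNFN is thus the member nearest to the fold threshold of the table, and genes just outside the thresholds were not analysed here. By the same rule the authors called 4.98% of the 15117 genes they adjusted over, 3.67% as higher and 1.31% as lower. Library depth was 30200000 to 57200000 reads. The authors' rule put the 3 genes in the table and admits either direction. The 3 were also chosen with earlier results of these data known, so their common direction is a description.

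The coding sequences of SPRR1A and SPRR1B are shown first because they decide how well reads of the pair can be told apart. They are the GENCODE release 29 transcripts, 5′ to 3′ without the stop codon, with each base that differs between them in capitals.
SPRR1A: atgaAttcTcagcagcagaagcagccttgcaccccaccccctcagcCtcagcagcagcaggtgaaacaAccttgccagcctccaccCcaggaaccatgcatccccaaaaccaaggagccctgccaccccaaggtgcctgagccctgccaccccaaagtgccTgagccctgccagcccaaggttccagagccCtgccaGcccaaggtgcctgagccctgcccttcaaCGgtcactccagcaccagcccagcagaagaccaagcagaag
SPRR1B: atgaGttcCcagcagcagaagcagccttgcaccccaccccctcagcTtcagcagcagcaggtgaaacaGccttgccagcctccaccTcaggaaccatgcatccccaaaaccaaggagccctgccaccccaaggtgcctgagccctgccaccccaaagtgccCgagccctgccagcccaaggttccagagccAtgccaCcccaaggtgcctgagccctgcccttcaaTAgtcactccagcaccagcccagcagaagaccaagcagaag
Each holds 267 coding bases, and an ungapped alignment had 257 identical and 10 mismatched bases (96.3% identity). The longest stretch with no difference was 74 bases. Over the annotated transcripts, 63 of the 240 distinct 31-base words of SPRR1A (26.2%) also occur in SPRR1B, and these 63 are 10.7% of the words of SPRR1B. None of the 600 such words of CNFN occurred in another gene. How the authors assigned reads that match both SPRR1 genes is not given in the labels, so the split between the pair is uncertain to that extent.

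The sequences before the starts of the 3 genes are shown as a description, and shared control of the genes was not tested. They are RefSeq sequences (GRCh38.p14) of the 250 bases before each start, 5′ to 3′ on the gene's strand. Capitals mark TGANTCA, the AP-1 motif, and TATAAA, a form of the TATA box, on the printed strand.
SPRR1A, chr1:152983831-152984080, plus strand: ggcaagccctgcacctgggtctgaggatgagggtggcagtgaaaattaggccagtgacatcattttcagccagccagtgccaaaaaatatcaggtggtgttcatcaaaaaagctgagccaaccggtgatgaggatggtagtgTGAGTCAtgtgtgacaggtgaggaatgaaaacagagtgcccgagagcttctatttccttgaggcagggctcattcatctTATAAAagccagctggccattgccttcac
SPRR1B, chr1:153030953-153031202, plus strand: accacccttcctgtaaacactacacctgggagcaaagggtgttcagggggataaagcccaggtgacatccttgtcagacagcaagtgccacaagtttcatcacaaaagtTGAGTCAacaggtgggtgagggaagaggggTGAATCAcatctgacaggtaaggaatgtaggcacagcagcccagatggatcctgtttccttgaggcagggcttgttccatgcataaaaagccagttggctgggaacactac
CNFN, chr19:42390298-42390547, minus strand: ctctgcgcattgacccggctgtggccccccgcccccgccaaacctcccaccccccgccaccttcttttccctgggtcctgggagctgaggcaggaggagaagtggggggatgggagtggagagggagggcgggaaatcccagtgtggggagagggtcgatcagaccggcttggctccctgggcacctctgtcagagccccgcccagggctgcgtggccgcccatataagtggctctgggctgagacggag
SPRR1A held 1 TGANTCA match, TGAGTCA, which began 108 bases before the start. SPRR1B held 2 matches, TGAGTCA at 141 and TGAATCA at 111 bases before the start. CNFN held none, and on the printed strand TATAAA was in SPRR1A alone among the 3 windows. Only exact TATAAA was searched, so other forms of the TATA box in SPRR1B and CNFN were not looked for. Searched on both strands, on which TGANTCA reads the same, the motif was in 6.60% of 27305 promoters of this length. It was in 7.02% of 399 promoters of genes higher in the table and in 8.15% of 135 promoters of genes lower in it. Of 37 matched genes of the cornified envelope precursor list, with or without a row in the table, 14 (37.8%) held it. TATAAA on either strand was in 11.1% of the 27305 promoters and in 23 of those 37. CACCC, the core of the sites bound by KLF factors, was also searched on both strands and 1 match on the other strand in SPRR1B overlapped TGAATCA by 2 bases. It was in all 3 windows and in 53.7% of all promoters. These matches are descriptions of letters in a window.

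SPRR1A was low in the control libraries and had the largest difference of the 3. SPRR1A (ENSG00000169474, GRCh38 chromosome 1, 152985231 to 152985500, plus strand) had 50, 37 and 14 counts in control replicates 1, 2 and 3. Its counts were 349, 327 and 350 in knockdown replicates 1, 2 and 3. In FPKM, a level in which reads are corrected for gene length and for depth, these were 3.24, 3.68 and 1.72 in the control and 24.2, 24.0 and 27.7 in the knockdown libraries. The groups did not overlap, and the lowest knockdown library was 6.53 times the highest control library. Rows were selected on this contrast, and no gene named in this report overlapped between the groups. A lack of overlap is therefore not particular to the 3 members, and its share over all rows was not counted. The mean level was 2.88 ± 1.03 FPKM in control and 25.3 ± 2.08 FPKM in knockdown libraries (SD, n = 3 per group), an 8.79-fold difference. On counts scaled by depth the log2 fold change was 3.10 ± 0.34 (SE). Control replicate 3 was the lowest library, and its 14 counts carry a 95% exact Poisson interval of 0.938 to 2.88 FPKM. The intervals of control replicates 1 and 2, 2.40 to 4.27 and 2.59 to 5.08 FPKM, each overlap with it in part. Such intervals cover counting error only. In bulk RNA such as this, more cells that express a gene and more RNA per cell cannot be told apart. Without control replicate 3 the log2 fold change was 2.88.

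SPRR1B had a higher control level and a smaller difference, with close replicates. SPRR1B (ENSG00000169469, chromosome 1, 153031202 to 153032900, plus strand, 2 exons) had 324, 212 and 187 counts in the control and 810, 750 and 723 in the knockdown libraries. Its levels were 9.13, 9.19 and 9.98 FPKM in control replicates 1, 2 and 3 and 24.5, 24.0 and 24.9 FPKM in knockdown replicates 1, 2 and 3. The groups did not overlap, and the lowest knockdown library was 2.40 times the highest control library. The mean was 9.43 ± 0.474 FPKM in control and 24.5 ± 0.470 FPKM in knockdown libraries, a 2.59-fold difference and a log2 fold change of 1.38 ± 0.045 (SE). The SD was 5.03% of the mean in control and 1.92% in knockdown libraries, against 35.7% and 8.21% for SPRR1A.

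CNFN showed the smallest difference of the 3. CNFN (ENSG00000105427, chromosome 19, 42387019 to 42390287, minus strand) had 93, 48 and 52 counts in the control and 176, 162 and 162 in the knockdown libraries. Its levels were 3.17, 2.52 and 3.36 FPKM in the control and 6.44, 6.27 and 6.76 FPKM in the knockdown libraries. All 3 knockdown libraries were above all 3 controls, and the lowest was 1.87 times the highest control. The mean was 3.02 ± 0.440 FPKM in control and 6.49 ± 0.249 FPKM in knockdown libraries, a 2.15-fold difference with a log2 fold change of 1.10 ± 0.13 (SE).

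**Figure D1:**
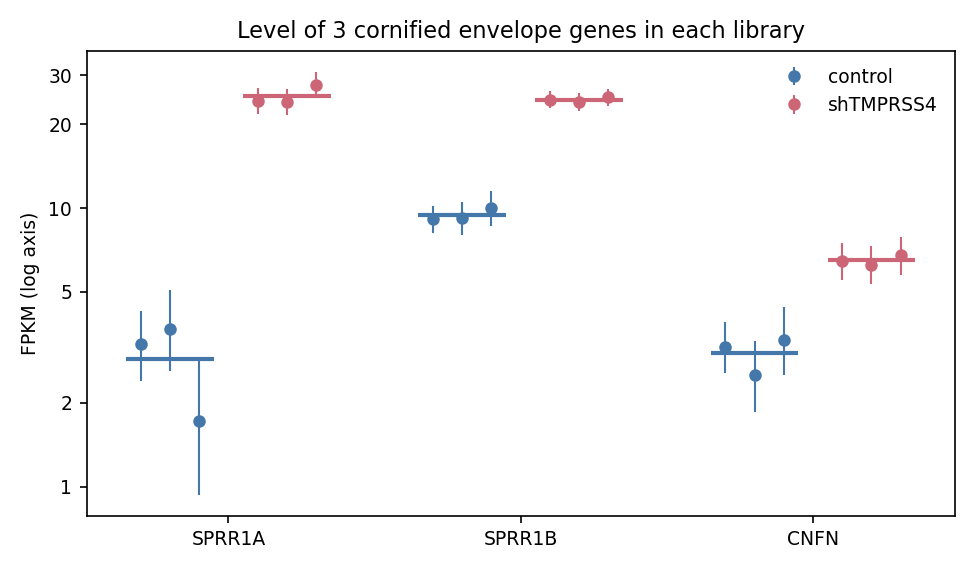
Level of SPRR1A, SPRR1B and CNFN (FPKM, log axis) in each of 3 control and 3 knockdown libraries, with the 95% exact Poisson interval of each count as a vertical line and the group mean as a horizontal line. The knockdown libraries are above the controls for each gene, and SPRR1A and SPRR1B meet near 25 FPKM there.

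The order of the 3 levels in FPKM differed between the groups. In the control libraries SPRR1B was highest at 9.43 FPKM, and CNFN at 3.02 and SPRR1A at 2.88 FPKM had overlapping libraries. In the knockdown libraries SPRR1A at 25.3 and SPRR1B at 24.5 FPKM had overlapping libraries, and CNFN was below both at 6.49 FPKM. In summed counts, which are not corrected for length, SPRR1B was the highest of the 3 in both groups. It had 723 counts in control and 2283 in knockdown libraries, against 101 and 1026 for SPRR1A. Among the 753 genes of the table the 3 ranked 60, 64 and 158 by mean FPKM in the knockdown libraries, in the order SPRR1A, SPRR1B and CNFN. By deposited log2 fold change they ranked 109, 357 and 499 among the 555 higher genes, whose median was 1.62 in the authors' deposited table. SPRR1A was therefore above that median, and SPRR1B and CNFN were below it.

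The balance within the SPRR1 pair shifted towards SPRR1A. The ratio of SPRR1A to SPRR1B FPKM was 0.355, 0.400 and 0.172 in control replicates 1, 2 and 3. It was 0.989, 1.001 and 1.11 in knockdown replicates 1, 2 and 3, with no overlap between the groups. The mean ratio was 0.309 ± 0.121 in control and 1.03 ± 0.067 in knockdown libraries (SD, n = 3 per group). In counts, which are not corrected for length, it was 0.135 ± 0.053 and 0.450 ± 0.029. The authors' FPKM imply a length of 270 bases for SPRR1A and 620 bases for SPRR1B, which are the exon lengths in GENCODE release 29. That annotation gives SPRR1A a single exon that starts at the start codon, 1150 bases after the RefSeq start. Untranslated ends of SPRR1A lie outside that exon, so the SPRR1A level is a level of the coding exon. The part of reads shared by the pair in this ratio was not tested.

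**Figure D2:**
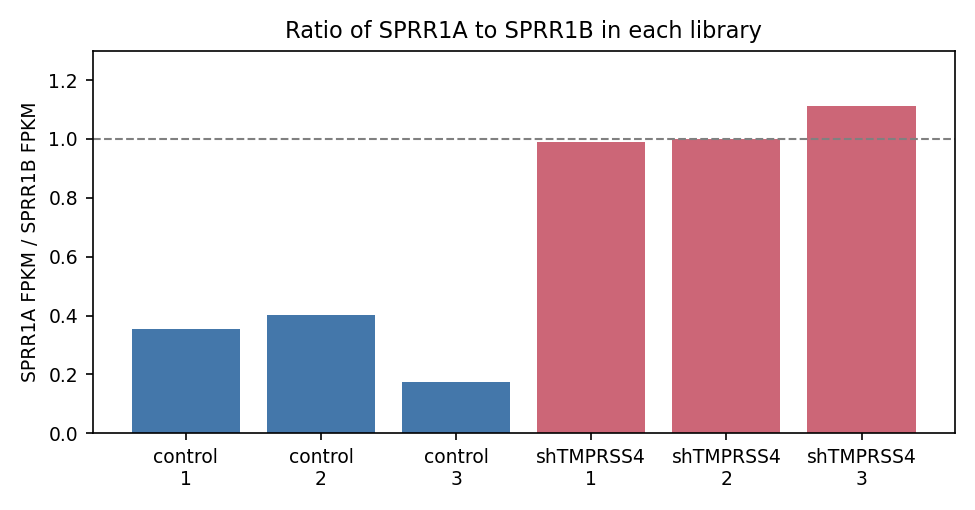
Ratio of SPRR1A FPKM to SPRR1B FPKM in each library, with a dashed line at equal levels. The 3 controls lie between 0.172 and 0.400 and the 3 knockdown libraries between 0.989 and 1.11.

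The other precursors of the envelope that had rows in the table were higher as well. Of 42 genes in a list of cornified envelope precursors 7 were in the table, 7 higher and 0 lower, with a median log2 fold change of 3.10 in the authors' deposited table. The authors called 4.98% of all genes they adjusted over, 3.67% as higher, and how many of the 42 were among those genes is not known here. Over all rows, 73.7% were higher and the median was 1.33. The list was written with earlier results of these data known, so its direction is a description. Besides the 3 members the 7 held LCE1E, SPRR2D, SPRR2A and SPRR2E.

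LCE1E, a late cornified envelope protein, had 1.27, 0.96 and 0.98 FPKM in the control and 9.79, 10.2 and 10.1 FPKM in the knockdown libraries. Its log2 fold change was 3.20 ± 0.13 (SE), close to that of SPRR1A. SPRR2D, a member of the second SPRR subfamily, had 0.82, 1.16 and 0.65 FPKM in the control and 5.06, 4.76 and 5.72 FPKM in the knockdown libraries, a log2 fold change of 2.55 ± 0.25 (SE). As for SPRR1A, control replicate 3 had the lowest value.

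SPRR2A was lower in level, with 0.22, 0.23 and 0.09 FPKM in control replicates 1, 2 and 3 (9, 6 and 2 counts). It had 0.98, 1.99 and 1.66 FPKM in knockdown replicates 1, 2 and 3 (37, 71 and 55 counts), and its log2 fold change of 2.99 ± 0.46 (SE) rests on 17 control counts. SPRR2E had 0 counts in all 3 controls and 12, 5 and 11 in the knockdown libraries. Against a floor of 3 counts over the control group it was 7.73-fold higher. That value does not include the counting error of its 28 knockdown counts. Of the 31-base words of SPRR2A 51.3% occur in other genes, all of the SPRR2 family, as do 29.9% of those of SPRR2D and 32.4% of those of SPRR2E. For LCE1E 17.3% occur in other LCE genes. The split among SPRR2 genes is therefore the least certain of these values.

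Summed over the 7 genes, the level was 17.9, 17.7 and 16.8 FPKM in control replicates 1, 2 and 3 and 71.3, 71.4 and 77.3 FPKM in knockdown replicates 1, 2 and 3. Without SPRR1A and SPRR1B the sum was 5.48, 4.87 and 5.08 FPKM in the control and 22.6, 23.3 and 24.6 FPKM in the knockdown libraries. In both groups the sums were closer between replicates, relative to their means, than SPRR2D and SPRR2A were. In the knockdown libraries LCE1E and CNFN were closer than the sums, with SDs of 2.09% and 3.83% of their means. EVPLL, envoplakin-like, was named after its annotation term for the cornified envelope and its values were seen. It had 0.727 ± 0.116 FPKM in control and 1.55 ± 0.146 FPKM in knockdown libraries.

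The SPRR and LCE1E rows come from a single genomic cluster. The epidermal differentiation complex, taken as the span from S100A10 to S100A1 (GRCh38 chromosome 1, 151982915 to 153632039), holds 64 protein-coding genes in GENCODE release 29. Of its genes 6 were in the table, all higher, and none of the 16 S100 genes of a fixed list was among them. Over all genes they adjusted over, the authors called 3.67% as higher. How many of the 64 were among those genes is not known here. SPRR1B starts 46.0 kb after SPRR1A, and SPRR2D, SPRR2A and SPRR2E start 54.5, 70.9 and 108 kb after it by their lowest coordinate. LCE1E lies 199 kb on the other side. SPRR1B, between SPRR1A and the SPRR2 genes, had a smaller fold change than either side. Within 500 kb of CNFN, a window with 26 protein-coding genes, CNFN was the only gene in the table. The share called over all genes was 4.98%.

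**Figure D3:**
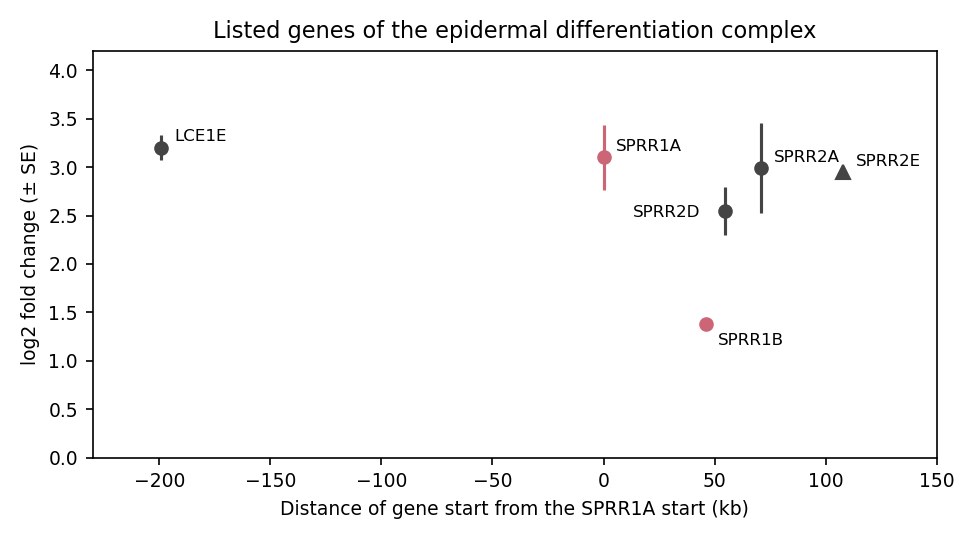
Log2 fold change of the 6 genes of the epidermal differentiation complex that are in the table (edgeR, ± SE) against the distance of their lowest coordinate from that of SPRR1A in kb. The SE is from log2 depth-scaled counts and not from the edgeR fit. The triangle for SPRR2E is its lower bound, and SPRR1B at 1.38 is the lowest of the 6.

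Other genes of squamous differentiation in the table did not share one direction. The list of crosslinking and scaffold genes had 1 of 28 in the table, a share near the 4.98% called over all genes. The 1 gene was TGM2, tissue transglutaminase. It had 5.30, 5.67 and 4.76 FPKM in the control and 1.13, 1.60 and 1.15 FPKM in the knockdown libraries. TGM1, TGM3 and TGM5, the transglutaminases of the epidermis, were not analysed here.

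Keratins of stratified epithelium had 2 of 21 in the table, both lower. Over all genes they adjusted over, the authors called 4.98%, with 1.31% as lower. How many of the 21 were among those genes is not known here. KRT13, a keratin of mucosal suprabasal layers, had 6.71, 8.18 and 7.59 FPKM in the control and 3.32, 2.83 and 3.49 FPKM in the knockdown libraries. KRT6B, a keratin of stressed and appendage epithelium, had 0.290 ± 0.089 FPKM in control and 0.103 ± 0.025 FPKM in knockdown libraries. The listed precursors were higher and these keratins lower in the knockdown libraries, which is a description of rows selected on this contrast.

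Desquamation proteases and their inhibitors had 4 of 24 in the table, 1 higher and 3 lower. Over all genes adjusted over, 3.67% were called higher and 1.31% lower. How many of the 24 were among those genes is not known here. KLK7, a stratum corneum protease, had 1.32 ± 0.272 FPKM in control and 0.377 ± 0.112 in knockdown libraries. KLK11 had 2.67 ± 0.503 and 1.20 ± 0.072 FPKM, and KLK10 had 6.03 ± 0.273 and 1.99 ± 0.046 FPKM. KLK12, the higher member, had 0, 0.23 and 0.18 FPKM in the control and 5.83, 5.77 and 4.84 FPKM in the knockdown libraries.

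Of 35 regulators of squamous differentiation 2 were in the table, both higher, a share near the 4.98% called over all genes. JUND, an AP-1 subunit, had 53.6, 47.9 and 49.4 FPKM in the control and 128, 129 and 125 FPKM in the knockdown libraries, a log2 fold change of 1.34 ± 0.050 (SE). HOPX, a homeodomain-only protein of differentiating keratinocytes, had 0.38, 0.92 and 0.83 FPKM in the control and 1.33, 1.82 and 1.65 FPKM in the knockdown libraries. Both JUND and SPRR1B had deposited log2 fold changes near the median of 1.33 over all rows of the authors' deposited table. Whether AP-1 bound the printed windows was not measured here.

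**Figure D4:**
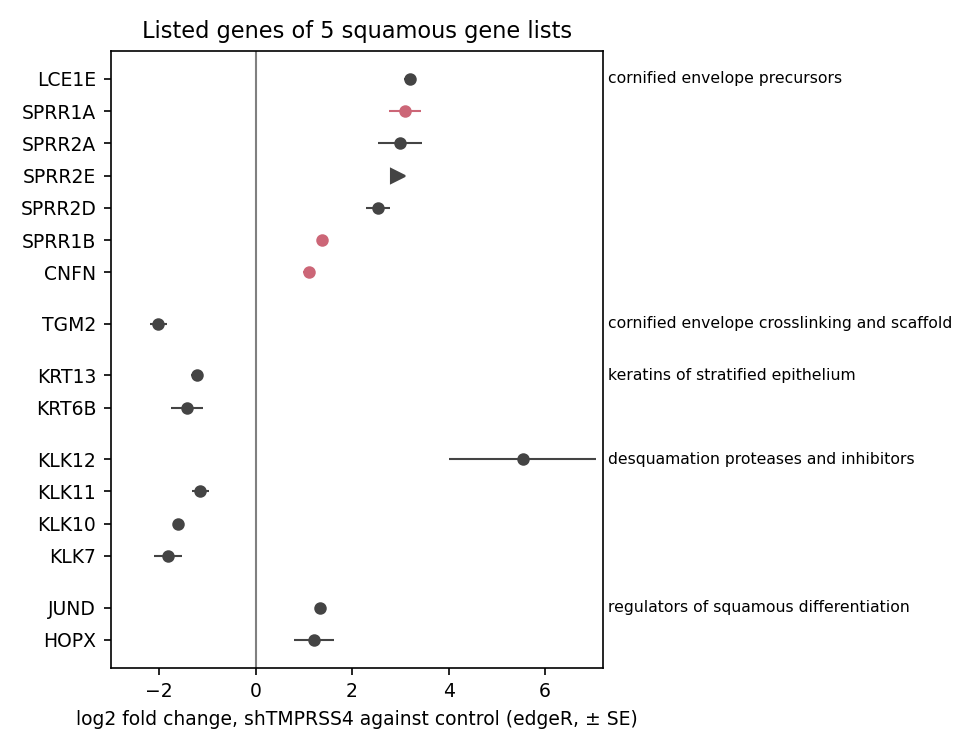
Log2 fold change (edgeR, ± SE over 3 against 3 libraries) of the genes of 5 squamous gene lists that are in the table. The SE is from log2 depth-scaled counts and not from the edgeR fit. SPRR1A, SPRR1B and CNFN are in red, and the triangle is SPRR2E against a floor of 3 control counts. The 7 precursors lie to the right of 0, and TGM2, both keratins and 3 of 4 desquamation genes lie to the left.

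Few cell type markers could be read from the table. Of KRT5, KRT14, TP63, KRT13, KRT1, KRT10 and IVL, chosen to mark stratified epithelium, KRT13 was in the table. None of 12 genes of simple ductal epithelium was, so the label AsPC-1 was not checked against markers. Of 17 fibroblast, endothelial and immune markers FAP and PECAM1 were in the table, where 4.98% of all genes were called. Their summed levels were 0.78 to 1.22 FPKM in control and 1.70 to 2.19 FPKM in knockdown libraries. FAP was higher and PECAM1 lower in the knockdown libraries, and their part in the SPRR and CNFN values was not tested.

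The 3 genes most like each member over the 6 libraries were not other envelope genes. Likeness was the smallest Euclidean distance between log2(FPKM + 0.1) profiles centred per gene, over the 385 other genes with a symbol and a mean of at least 1 FPKM. SPRR2A and SPRR2E were below that mean and could not be found. For SPRR1A the 3 likest genes were ANKRD65 (distance 0.556), PROX1 (0.586) and ATOH1 (0.666), with LCE1E at rank 7 and SPRR2D at rank 12 of the 385. ANKRD65, like SPRR1A, had its lowest value in control replicate 3. For SPRR1B they were MEX3B (0.127), AKR1C1 (0.137) and SPPL2B (0.167), and for CNFN they were GANC (0.0852), NREP (0.149) and OAS2 (0.185). SPRR1A was at rank 247 for SPRR1B and CNFN at rank 79. All 6 libraries enter these profiles and the table was selected on the contrast between the groups, so closeness here includes closeness in the size of the fold change.

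CNFN changed sign under 2 scalings that took the listed genes as the reference. Most listed genes were higher, so such scalings lower each value by construction. Scaled by recovered depth, all 3 members were higher in the knockdown libraries. When the listed genes set the scale, the median log2 fold change of all listed genes moved by -1.18 with DESeq2 size factors and by -1.20 with TMM. CNFN then had log2 fold changes of -0.062 and -0.085, SPRR1B 0.21 and 0.19, and SPRR1A 1.94 and 1.91. Relative to the other listed genes, SPRR1A was therefore higher on each scale, SPRR1B was near their median and CNFN was slightly below it.

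**Figure D5:**
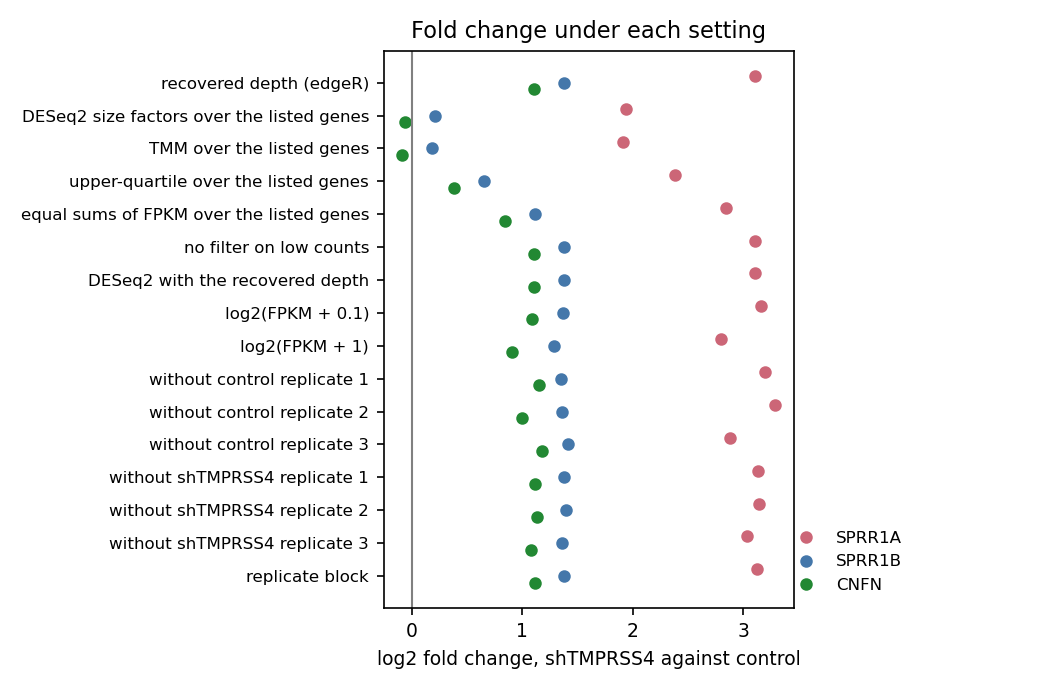
Log2 fold change of SPRR1A, SPRR1B and CNFN under each scaling, tool, pseudocount, left-out library and the replicate block. SPRR1A stays above 1.9 throughout, and CNFN is at -0.062 and -0.085 with DESeq2 size factors and TMM over the listed genes.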

How the data were processed

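Polyadenylated RNA of 3 control and 3 shTMPRSS4 AsPC-1 samples was sequenced, per the labels' protocols. The submitters' processing notes name Bowtie 0.12.2 with mm8 and mm9, although the gene identifiers are human. Neither the counting tool nor the statistical test is given in the sources used here. Per the file headers, the deposited table holds a count and an FPKM value per gene and library. The authors' mean FPKM, log2 fold change, p-value and FDR are given for 753 selected genes. All 753 identifiers matched GENCODE release 29, which supplied coordinates. Library depth was recovered from the ratio of count to FPKM over 159 genes with at least 200 counts, and its absolute size from 12 of them with 1 transcript. It was 30200000 to 57200000 reads in control and 46800000 to 53300000 in knockdown libraries. Listed genes held 1.23% to 1.40% of it.

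Fold changes came from the edgeR 4.0.16 quasi-likelihood fit (R 4.3.3) over all listed genes that passed its filter on low counts, with recovered depth as library size. The fit was checked on simulated counts drawn with the recovered depth, which cannot check the depth or the scaling itself. The SE is from log2 depth-scaled counts plus 0.5. No p-value is given, since the rows were selected on this contrast. The labels do not say that replicates were separate cultures. Alternatives were other scalings, DESeq2 1.42.0, no filter, FPKM with pseudocounts of 0.1 and 1, each library left out and a replicate block. Named genes were the 3 members, all listed precursors, up to 4 listed genes of each other list, the 3 likest genes per member and listed neighbours. The members and lists were chosen with earlier results of these data known. Of 7 listed precursors 5 matched a RefSeq promoter.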

Additional observations from a re-analysis of the deposited data

How the results depend on the processing

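With recovered depth, the log2 fold changes of SPRR1A, SPRR1B and CNFN were 3.10, 1.38 and 1.10. Over the 6 fits that each left out 1 library they ranged from 2.88 to 3.29, 1.35 to 1.42 and 0.99 to 1.18. DESeq2 size factors over the listed genes gave 1.94, 0.21 and -0.062, TMM gave 1.91, 0.19 and -0.085, and upper-quartile scaling gave 2.38, 0.65 and 0.38. Equal sums of FPKM gave 1.12 for SPRR1B and 0.84 for CNFN, and log2(FPKM + 1) gave 1.29 and 0.90. The 4 scalings take the listed genes, most of them higher, as the reference, so they lower each value by construction, and the added pseudocount of 1 understates the change of low levels. With equal sums of FPKM the mean level became 23.2 FPKM for SPRR1A, 22.5 for SPRR1B and 5.96 for CNFN in knockdown libraries, and 10.4 FPKM for SPRR1B in control libraries. The ratio of SPRR1A to SPRR1B was 0.135 and 0.450 in counts, because length is not divided out. Without control replicate 3 the control ratio in FPKM was 0.378. With the replicate number as a block the log2 fold changes were 3.12, 1.38 and 1.11. Same-numbered libraries did not deviate together, with correlations of -0.048, 0.035 and -0.12 over 388 genes, so the numbers were not taken to pair them. At an FDR under 0.001 the count of lower keratins was 1 instead of 2, of higher regulators 1 instead of 2 and of lower markers of other cells 0 instead of 1. At a mean of at least 1 FPKM the lower keratins were 1 and the lower markers of other cells 0. The precursor count was 6 of 7 at that FDR and 5 of 7 at that mean. Depth limits the values of SPRR2A, SPRR2E and KLK12, with 17, 0 and 13 control counts.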
